A study of Rattus norvegicus with 2 samples.

Results

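Collagens and laminins are the gene families that build the scaffold around cells, and 51 genes of them, 41 collagens and 10 laminins, were taken from 18256 genes listed for either library. The members are the genes whose symbol has the form of a collagen chain (Col, a type number, a and a chain number) or of a laminin chain (Lama, Lamb or Lamc and a number). They were measured by single-cell RNA sequencing in IEC-6, an established epithelial cell line from rat small intestine. Cells labelled TNF had received 100 ng/mL of recombinant rat tumor necrosis factor for 72 hours in each of 10 cycles, and control cells had received phosphate-buffered saline in 10 treatments. There was 1 library of each kind, so their differences carry no replicate error and none was tested. The titles of the libraries begin with different prefixes that are not explained in the sources used here, so treatment and preparation cannot be told apart. Cells of both libraries were thawed from frozen stocks before library preparation.

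Collagens are triple helices of 3 chains that are hydroxylated and folded in the endoplasmic reticulum. Fibrillar collagens form the fibres of connective tissue, fibril-associated collagens decorate those fibres, and network-forming collagens such as type IV make the sheet of the basement membrane. Laminins are cross-shaped trimers of an alpha, a beta and a gamma chain that bind integrins and dystroglycan on the basal side of epithelia. In the intestine the basement membrane holds both laminin and type IV collagen, and fibroblasts under the epithelium are known as the main source of fibrillar collagens.

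There were 14604393 counts from 3457 cells under the TNF label and 24207943 counts from 5712 control cells, at medians of 3566 and 2902.5 counts per cell. Of all cell barcodes, 24 occurred in both libraries. Levels are counts scaled to 1000000 per library after summing its cells (CPM), ratios are TNF-labelled over control, and intervals in parentheses are exact 95% intervals that cover counting error only. Of 13 epithelial marker genes found, 7 reached 5 CPM in either library, and Epcam had 4 counts in each library. All 7 had ratios below 1, and 3 were at least 2-fold lower in TNF-labelled cells, namely Krt18 (27.0 and 93.4 CPM), Krt19 (1.92 and 8.34 CPM) and Spint2 (36.7 and 140.2 CPM). Nearer to level were the keratin gene Krt8 at 2193 and 2456 CPM, Cdh1, the gene of E-cadherin, at 313 and 424 CPM, Dsp with a ratio of 0.826 and Tjp1 with 0.633. Of other cell types, 1 of 6 smooth muscle markers reached that level (Myh11, 32.7 and 18.7 CPM), 1 of 7 endothelial markers (Tek, 127 and 70.5 CPM), and 0 of 6 white blood cell and 0 of 5 nerve markers. Ccl2, a chemokine gene that TNF is known to induce, stood at 60.9 CPM in TNF-labelled and 969.8 CPM in control cells, against that known direction, so directions refer to the label TNF throughout, not to the treatment.

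Among the members, 22 reached 5 CPM in either library, 15 collagens and 7 laminins. A ratio of at least 2 in either direction was used as a fixed size. By this size 2 members were higher in TNF-labelled cells, Col8a1 and Lama2, and 6 were lower, Col3a1, Col6a1, Col6a2, Col19a1, Col20a1 and Lamb3. The other 14 lay under 2-fold. Over all 9740 genes that reached 5 CPM, 5.70% were higher and 8.97% lower by the same size, against 9.09% and 27.3% of the 22 members. All 6 lower members lay under 5 CPM in TNF-labelled cells and met the minimum only through the control library. Their share therefore depends on that minimum. With the whole counting interval past 2-fold, 2 members were higher and 4 lower, against 3.50% and 5.38% of all genes. The median log2 ratio was 0.03 for the 15 collagens and -0.45 for the 7 laminins, beside -0.08 for all genes. The summed level of the 41 collagens was 971 CPM in TNF-labelled and 818 CPM in control cells, and that of the 10 laminins 772 and 785 CPM. No level is compared between genes, since transcript lengths were not used here.

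**Figure D1:**
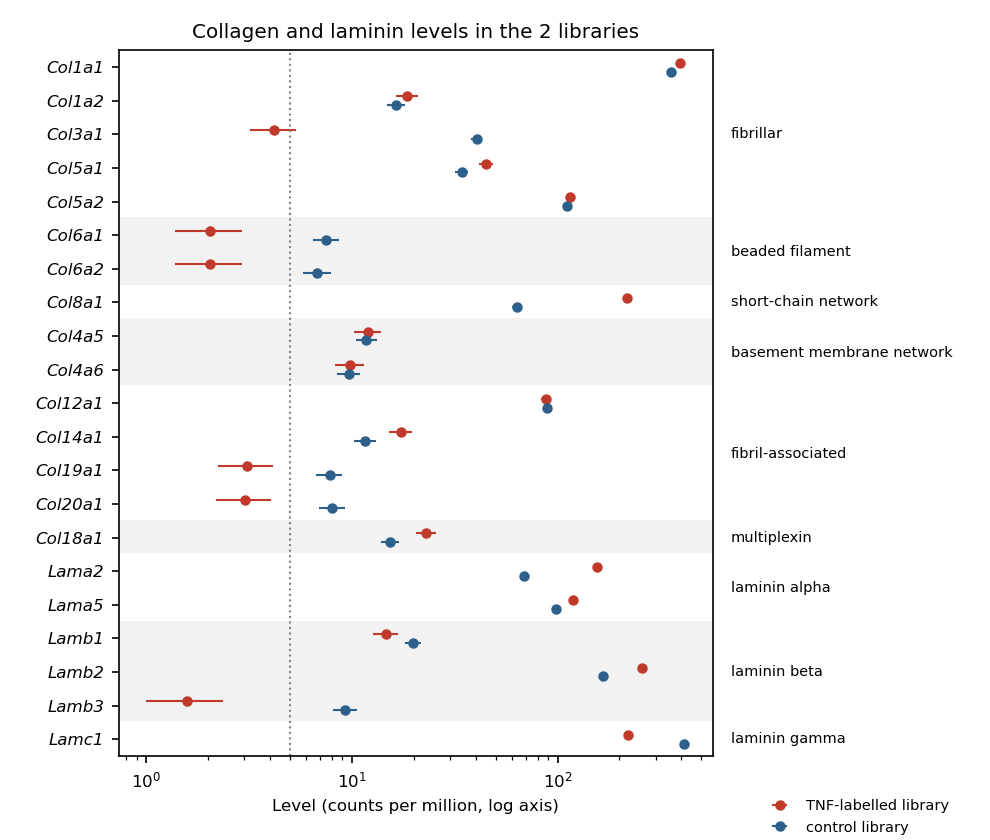
Level of the collagen and laminin genes described here that reached 5 CPM, in CPM on a log axis, as points for the TNF-labelled and the control library with exact Poisson 95% intervals, grouped by class. Col8a1 and Lama2 lay higher in TNF-labelled cells, and Col3a1, Col6a1, Col6a2, Col19a1, Col20a1 and Lamb3 lay under 5 CPM there and above it in control cells.

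Upstream sequences are shown for the members with the largest ratios in each direction that the RefSeq promoter table holds, since these genes carry the differences described here. They are the 250 bases before the annotated start site in build GRCr8, written 5′ to 3′ on the gene's strand, with motif matches in capitals. The build differs from the Rnor_5.0 build named in the submitters' processing notes, and the genes were matched by symbol, which worked for 40 of the 51 members and 15 of the 22 at 5 CPM. Col3a1 and Col6a2 had no entry.
Col8a1 (chr11:56246532-56246781, plus strand): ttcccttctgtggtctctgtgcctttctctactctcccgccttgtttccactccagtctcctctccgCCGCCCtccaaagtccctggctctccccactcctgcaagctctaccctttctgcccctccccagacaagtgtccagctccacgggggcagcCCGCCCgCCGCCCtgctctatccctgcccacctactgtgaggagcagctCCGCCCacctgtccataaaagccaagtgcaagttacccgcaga
Lama2 (chr1:19491896-19492145, plus strand): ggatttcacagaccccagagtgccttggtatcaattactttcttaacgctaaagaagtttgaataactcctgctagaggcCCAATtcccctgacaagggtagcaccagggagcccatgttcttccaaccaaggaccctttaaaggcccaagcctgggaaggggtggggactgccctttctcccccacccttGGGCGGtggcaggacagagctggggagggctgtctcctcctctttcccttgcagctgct
Lamb3 (chr13:107362303-107362552, plus strand): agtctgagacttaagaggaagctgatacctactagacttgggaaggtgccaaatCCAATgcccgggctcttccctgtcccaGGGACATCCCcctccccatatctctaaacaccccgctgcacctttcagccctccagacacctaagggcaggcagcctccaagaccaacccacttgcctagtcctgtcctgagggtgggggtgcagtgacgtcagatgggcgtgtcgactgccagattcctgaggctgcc
Col6a1 (chr20:11905440-11905689, plus strand): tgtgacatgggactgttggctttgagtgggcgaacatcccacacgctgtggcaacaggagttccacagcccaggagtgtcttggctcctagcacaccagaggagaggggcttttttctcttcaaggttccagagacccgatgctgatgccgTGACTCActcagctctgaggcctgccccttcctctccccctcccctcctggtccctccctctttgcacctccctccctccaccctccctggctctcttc

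The motifs searched on both strands were the TATA box (TATAAA), the CCAAT box (CCAAT), the GC box (GGGCGG), the AP-1 motif (TGANTCA), the TEAD motif (GGAATG) and the kappaB motif of the NF-kB family. The Col8a1 window held 4 GC boxes and no other match, and the Lama2 window held a CCAAT box and a GC box. In the Lamb3 window there were a CCAAT box and, at 169 to 160 bases before the start, the only kappaB match among the 15 members. The Col6a1 window held the only AP-1 match among them, at 99 to 93 bases before the start. Of 33469 windows of the same length for all genes, 30.5% held a GC box, 34% a CCAAT box, 12.9% a TATA box, 12.1% a TEAD motif, 6.34% an AP-1 motif and 3.54% a kappaB motif. Among the 15 members, 10 windows held a GC box, 4 a CCAAT box, 2 a TEAD motif and 1 a TATA box. A match describes the letters of the window and shows neither binding nor regulation.

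Fibrillar collagens, the fibre-forming class, were led in size of difference by Col3a1 (ENSRNOG00000003357), the chain of type III collagen. It stood at 4.18 CPM (3.19 to 5.37) in TNF-labelled cells, from 61 counts, and at 40.5 CPM (38.0 to 43.1) in control cells, from 980 counts. That made it 9.69-fold lower (7.48 to 12.8) in TNF-labelled cells, the largest difference of all 22 members. The remaining 4 fibrillar genes at this level lay within 1.5-fold. Col1a1, the alpha 1 chain of type I collagen, was at 393 CPM in TNF-labelled and 355 CPM in control cells, a ratio of 1.11 (1.07 to 1.14). Col1a2, the partner chain in the same trimer, was at 18.6 and 16.4 CPM (ratio 1.13, 0.966 to 1.32). The ratio of Col1a1 relative to that of Col1a2 was 0.978 (0.832 to 1.15), a difference within counting error.

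Type V collagen, which nucleates fibrils and regulates their width, lay within 1.5-fold. Col5a2 stood at 115 CPM in TNF-labelled and 111 CPM in control cells (ratio 1.04, 0.974 to 1.10). Col5a1 was at 44.8 and 34.2 CPM (ratio 1.31, 1.18 to 1.46), and its ratio relative to that of Col5a2 was 1.27 (1.12 to 1.43). Col3a1 and Col5a2 are adjacent protein-coding genes in the RefSeq annotation of GRCr8, so neighbours on 1 chromosome had ratios of 0.103 and 1.04.

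Type VI collagen, which forms beaded microfilaments near the cell surface, was lower in both chains that reached 5 CPM. Col6a1 (ENSRNOG00000001249) stood at 2.05 CPM (1.39 to 2.93) in TNF-labelled and 7.52 CPM (6.47 to 8.69) in control cells, 3.66-fold lower (2.48 to 5.58). Col6a2 (ENSRNOG00000001254) stood at 2.05 CPM (1.39 to 2.93) and 6.77 CPM (5.78 to 7.89), 3.30-fold lower (2.22 to 5.04). The ratio of Col6a1 relative to that of Col6a2 was 0.901 (0.501 to 1.62), no more than counting error. These genes lie next to each other on chromosome 20. The chain that completes the classical trimer, Col6a3, stayed under 5 CPM in both libraries at 2.74 and 1.74 CPM, with a ratio of 1.58 (0.998 to 2.49).

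Col8a1 (ENSRNOG00000039668), which encodes a short-chain network collagen of the vessel wall and the cornea, had the highest ratio of the 22 members. It stood at 219 CPM (211 to 226) in TNF-labelled cells, from 3195 counts, and at 63.5 CPM (60.4 to 66.7) in control cells, from 1537 counts. The ratio was 3.45 (3.24 to 3.66). It was the only collagen past 2-fold in the higher direction, and its ratio lay between 2.88 and 4.05 under all 22 alternatives computed.

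Type IV collagen, the sheet-forming collagen of basement membranes, was represented at 5 CPM by Col4a5 and Col4a6 alone. Col4a5 stood at 11.98 and 11.8 CPM (ratio 1.018, 0.838 to 1.23) and Col4a6 at 9.79 and 9.67 CPM (ratio 1.01, 0.817 to 1.25). Neither differed between the libraries beyond counting error. The chains of the most widespread type IV trimer were scarce, with 2 and 31 counts for Col4a1 (ratio 0.107, 0.0124 to 0.420) and 9 and 76 counts for Col4a2 (ratio 0.196, 0.0865 to 0.393). Col4a3 and Col4a4, known from the kidney glomerulus, had 4 counts each in TNF-labelled cells, and 22 and 27 in control cells.

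The 6 type IV genes lie in head-to-head pairs, and their start sites in the RefSeq annotation are 76 bases apart for Col4a1 and Col4a2, 412 for Col4a3 and Col4a4 and 1414 for Col4a5 and Col4a6. The ratios within the pairs were 0.107 and 0.196, 0.301 and 0.246, and 1.018 and 1.01. The first 4 genes rest on 2 to 9 counts in TNF-labelled cells and their intervals overlap widely. Col4a5 and Col4a6 were the only pair with both ratios near 1. The stretch between the Col4a1 and Col4a2 start sites is shown because both genes are transcribed away from it. It is written on the strand of Col4a1, and the capitals mark a GC box on the other strand.
Col4a1 and Col4a2 (chr16:84885521-84885596, plus strand, GRCr8): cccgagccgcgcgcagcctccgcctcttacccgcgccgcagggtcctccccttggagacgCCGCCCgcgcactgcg

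Fibril-associated collagens split by level. Col12a1, which coats type I fibrils, stood at 87.7 and 88.4 CPM (ratio 0.992, 0.925 to 1.06). Col14a1, its close relative, was at 17.3 CPM in TNF-labelled and 11.6 CPM in control cells (ratio 1.49, 1.25 to 1.78). Under the 22 alternatives the Col14a1 ratio ran from 1.11, in cells without a Top2a or Mki67 count, to 2.10, in the clusters led by Top2a. Col19a1 (ENSRNOG00000012759), a minor collagen of basement membrane zones, was at 3.08 CPM (2.25 to 4.12) and 7.81 CPM (6.73 to 9), 2.53-fold lower (1.82 to 3.59). Col20a1 (ENSRNOG00000010326) was at 3.01 CPM (2.19 to 4.04) and 8.01 CPM (6.93 to 9.22), 2.66-fold lower (1.91 to 3.78). The intervals of both reach below 2-fold. For Col19a1 the ratio of 0.395 became 0.607 without control cluster 1 and 1.04 in the clusters led by Syt1, under 2-fold in both. Col18a1, a collagen with heparan sulfate chains whose end fragment is endostatin, was at 23.0 CPM in TNF-labelled and 15.4 CPM in control cells (ratio 1.5, 1.29 to 1.74). Its ratio ran from 1.02 in the clusters led by Syt1 to 2.11 in those led by Top2a.

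Laminin alpha chains decide which receptors a laminin binds, and both that reached 5 CPM were higher in TNF-labelled cells. Lama2 (ENSRNOG00000011134), the alpha chain of muscle and nerve basement membranes, stood at 155 CPM (149 to 161) in TNF-labelled cells, from 2263 counts, and at 68.9 CPM (65.6 to 72.2) in control cells, from 1667 counts. Its ratio was 2.25 (2.11 to 2.40). Lama5, the main alpha chain of mature epithelial basement membranes, was at 119 and 98.6 CPM (ratio 1.21, 1.13 to 1.28). Lama1 had 8 and 24 counts, and Lama4, a chain of vessel walls, had 13 and 59 counts. Lama3, the alpha chain of laminin-332, was not analysed here because its symbol was not among those the rule found.

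Lamb2 was the only beta chain at this level that was higher. It stood at 256 CPM (248 to 265) in TNF-labelled and 166 CPM (161 to 172) in control cells (ratio 1.54, 1.47 to 1.61). Lamb1, the alternative beta chain, stood at 14.7 and 19.95 CPM (ratio 0.734, 0.622 to 0.864). Lamc1, the gamma chain that most laminin trimers share, was at 220 CPM (213 to 228) in TNF-labelled and 412 CPM (404 to 420) in control cells, 1.87-fold lower (1.80 to 1.95), just under the fixed size. So the beta chains differed in direction while the shared gamma chain was lower.

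The partner chains of Lamc1 were therefore higher relative to it. The ratio of Lamb2 divided by that of Lamc1 was 2.88 (2.71 to 3.06), that of Lama5 divided by that of Lamc1 was 2.25 (2.09 to 2.43), and that of Lamb1 divided by that of Lamc1 was 1.37 (1.16 to 1.62). These values do not depend on the scaling of the libraries.

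Lamb3 (ENSRNOG00000006025) encodes the beta chain of laminin-332, which anchors epithelial cells through hemidesmosomes, and it was the only laminin that reached 5 CPM and was at least 2-fold lower. It stood at 1.57 CPM (0.998 to 2.36) in TNF-labelled cells, from 23 counts, and at 9.25 CPM (8.08 to 10.5) in control cells, from 224 counts, which is 5.88-fold lower (3.82 to 9.46).

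**Figure D2:**
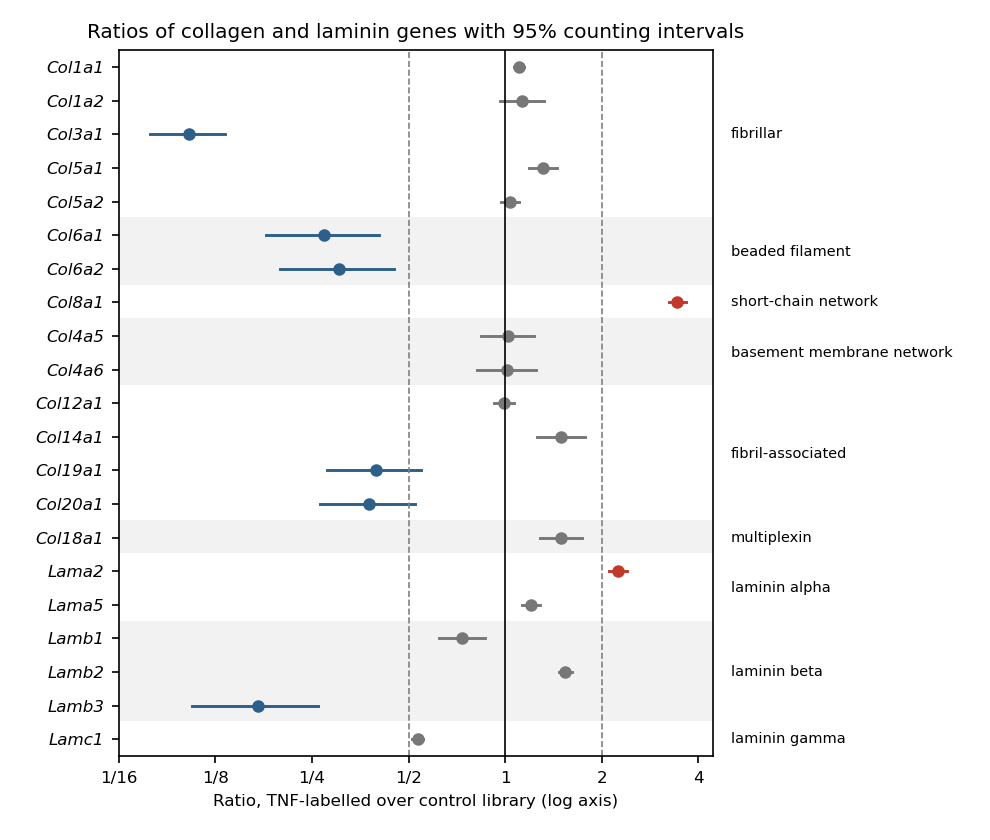
Ratio of TNF-labelled over control level for the same genes on a log axis, with exact 95% counting intervals; dashed lines mark 2-fold in either direction. Col8a1 and Lama2 lie to the right of the upper line, and 6 genes lie to the left of the lower line, with Col3a1 farthest.

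Members at low levels were lower in TNF-labelled cells as a group, and so were other genes of that level. Between 1 and 5 CPM in the higher library there were 13 members, of which 9 were at least 2-fold lower and 0 at least 2-fold higher, against 31.7% and 7.40% of all 2566 genes in this band. Their median log2 ratio was -1.65, beside -0.47 for all genes of the band. The 9 were Col4a1, Col4a2, Col4a4, Col6a6, Col11a1, Col17a1, Col24a1, Col28a1 and Lama4, and the other 4 were Col5a3, Col6a3, Col16a1 and Col26a1. Control cluster 1 had the lowest median depth of the control clusters described below and held 12.1% of all control counts. It held 25.4% (Col17a1) to 48.1% (Col4a4) of the control counts of the 8 collagens among the 9. The part of that cluster in these differences was not tested. Col17a1, the transmembrane collagen of hemidesmosomes, had 12 counts in TNF-labelled and 63 in control cells (ratio 0.316, 0.155 to 0.591). From 5 to 10 CPM there were 7 members, of which 5 were lower by the size and 0 higher, against 14.6% and 8.74% of 1190 genes. The 1190 genes of that band had a median log2 ratio of -0.11.

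The near absent members, under 1 CPM in both libraries, were 14 collagens and 2 laminins. They were Col2a1, Col4a3, Col6a4, Col6a5, Col7a1, Col9a1, Col9a2, Col9a3, Col11a2, Col13a1, Col15a1, Col22a1, Col25a1, Col27a1, Lama1 and Lamc3. None of them had more than 8 counts in the TNF-labelled or 24 counts in control cells. Col2a1, the collagen of cartilage, had 0 and 4 counts and Col15a1 0 and 2, where 3 counts correspond to 0.205 CPM in TNF-labelled and 0.124 CPM in control cells. Col7a1, which forms the anchoring fibrils of skin, had 4 and 9 counts. Apart from Col4a3, whose ratio is given with its head-to-head pair, no ratio is read from these genes.

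**Figure D3:**
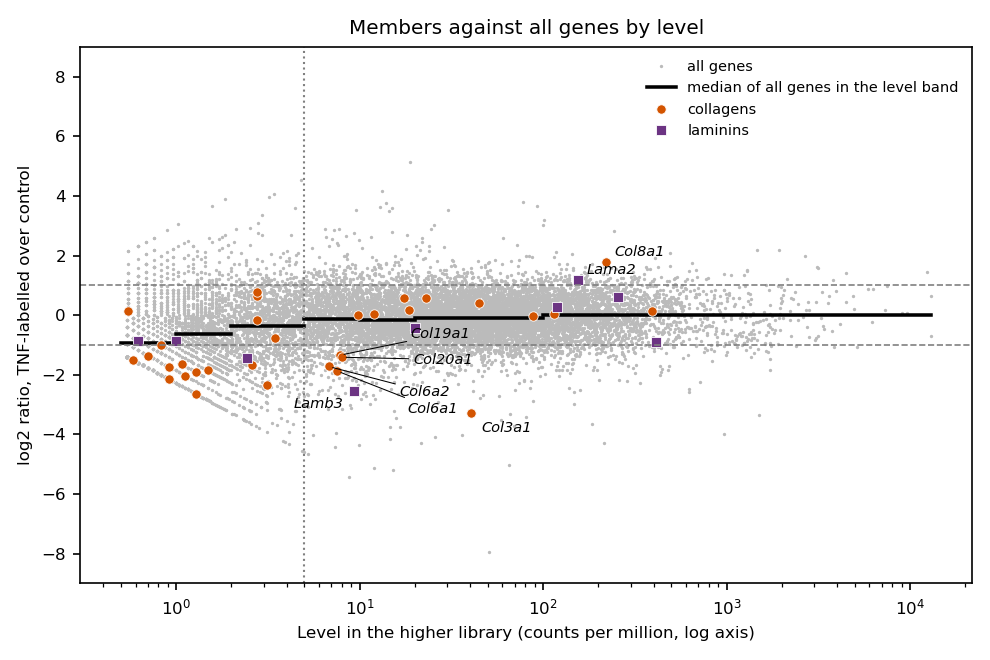
Log2 ratio of TNF-labelled over control level against the level in the higher library in CPM (log axis) for all genes that reach 0.5 CPM in one library or the other (grey points), with the median of all genes in each level band (black lines) and the members in colour. The median of all genes goes from 0.01 above 100 CPM to -0.95 between 0.5 and 1 CPM, and the named members are those past 2-fold (dashed lines) at 5 CPM or more (dotted line).

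The share of cells with a count, drawn from the same counts, followed the same direction for every member past 2-fold at 5 CPM. Col4a5, with a level ratio of 1.018, went the other way, at shares whose intervals overlap. Every cell was thinned to 1700 counts, which kept 2728 TNF-labelled and 4753 control cells and left out 729 and 959 shallower cells. In TNF-labelled cells Col8a1 was found in 23.9% (22.4 to 25.6) and in control cells in 8.94% (8.15 to 9.79), and Lama2 in 21.5% (19.95 to 23.1) and 9.38% (8.57 to 10.2). Without thinning the shares were 39.3% and 17.4% for Col8a1, and 35.5% and 19.5% for Lama2. Lamb2 was found in 36.3% (34.5 to 38.1) and 24.6% (23.3 to 25.8) of the thinned cells, and Lamc1 in 29.0% (27.3 to 30.7) and 45.05% (43.6 to 46.5). For Col3a1 the shares were 0.623% (0.363 to 0.996) and 5.83% (5.18 to 6.53). Col1a1 was found in 36.3% of the cells of each library. No cell type that should lack these genes was present, so the share that free RNA gives was not measured.

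A thinned cell held a median of 1 collagen and 1 laminin count in either library. At least 1 collagen count was found in 72.1% of TNF-labelled and 67.6% of control cells, and at least 1 laminin count in 71.7% and 70.2%. Some genes were concentrated in few cells before thinning. A single cell held up to 95 Col1a1 counts in control cells and 54 in TNF-labelled cells. The 1% of control cells with the most Col3a1 counts held 35.2% of the 980, and the most in a cell was 32. For Lamb2 the top 1% of cells held 6.57% of the counts in TNF-labelled and 8.34% in control cells.

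**Figure D4:**
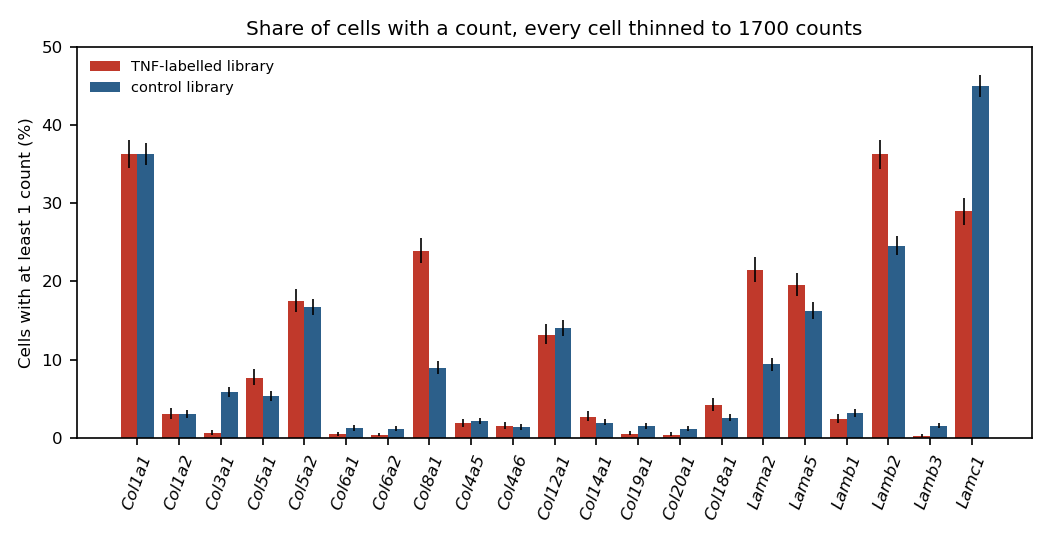
Percentage of cells with at least 1 count of each of the same genes after every cell was thinned to 1700 counts, for the TNF-labelled library (2728 cells) and the control library (4753 cells), with exact binomial 95% intervals. The bars differ most for Lamc1, Col8a1, Lama2 and Lamb2, and are level for Col1a1.

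Cells of each library were clustered without the collagen and laminin genes, which gave 6 clusters in each, to see where the members' counts lay. Clusters are named by number and leading gene only and are not replicates. Col8a1 ranged from 83.1 to 308 CPM over the TNF-labelled clusters and from 49.0 to 84.7 CPM over the control clusters, overlapping only between TNF-labelled cluster 5, led by the mitotic gene Ccnb1, and control cluster 2, led by Syt1. Lama2 ranged from 51.1 to 194 CPM and from 42.1 to 105 CPM, with the same TNF-labelled cluster 5 lowest. Lamb2 was the only member at 5 CPM whose level was higher in every TNF-labelled cluster, at 210 to 287 CPM, than in every control cluster, at 130 to 190 CPM. Lamb3, Col6a2 and Col20a1 were lower in every TNF-labelled than in every control cluster. Such separation was seen in 11.5% of all genes in the higher and 17.2% in the lower direction, so the members' counts of 1 and 3 of 22 are not above the background.

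Type I collagen varied more between clusters than between libraries. Col1a1 stood at 1062 CPM (1011 to 1116) in TNF-labelled cluster 4, led by Plxna4a, and at 299 to 349 CPM in the other 5 clusters of that library. In the control library it ranged from 100 CPM in cluster 4, led by Tenm3 and Lgals4, to 671 CPM (639 to 705) in cluster 3, led by Ocm2. Col4a6 and Col18a1 were also highest in TNF-labelled cluster 4, at 38.8 and 56.9 CPM. Col1a2 did not follow Col1a1 there, with 7.36 CPM in that cluster, the lowest value of the 6, and 11.5 CPM in control cluster 3.

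Col3a1 was highest in control cluster 3 as well, at 100 CPM (88.2 to 114), with 56.5 and 50.7 CPM in control clusters 1 and 2 and 14.3 to 18.7 CPM in the rest. In the TNF-labelled library its highest value was 14.7 CPM (9.22 to 22.3), in cluster 4, and cluster 5 had 0 counts. Of the fibroblast markers, Dcn moved with it. The summed level of the list was 146 CPM in TNF-labelled and 261 CPM in control cells, and 567 CPM in control cluster 3 against 111 to 280 CPM in the other control clusters. Dcn alone made 550 of the 567 CPM, and without it the sum was 42.6 CPM in TNF-labelled and 27.0 CPM in control cells, and 16.9 CPM in control cluster 3 against 16.7 to 35.0 CPM in the others. Of the 11 fibroblast markers found, 3 reached 5 CPM, namely Dcn at 103 and 234 CPM, Twist2 at 22.8 and 24.2 CPM and Prrx1 at 18.9 and 0.537 CPM. Pdgfra, Thy1 and Dpt had 0 counts in TNF-labelled cells, and 16, 1 and 5 in control cells. The remaining markers were scarce in both libraries, with 4 and 22 counts for Fap, 1 and 6 for Pdgfrb, 2 and 3 for Lum, 1 and 1 for Ogn and 5 and 2 for Postn. The part of these markers in the collagen differences was not tested.

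The leading control cluster for Lamb3 was another one. Lamb3 stood at 29.2 CPM (23.3 to 36.2) in control cluster 4, which held 37.5% of its counts in 9.30% of the cells, and at 4.08 to 10.6 CPM in the other control clusters. Of the 7 epithelial markers at 5 CPM, Krt8 (3862 CPM), Krt18 (275 CPM), Krt19 (27.2 CPM) and Dsp (182 CPM) were highest in that control cluster, and Cdh1, Tjp1 and Spint2 in control cluster 3. The summed level of the epithelial list was 5229 CPM in control cluster 4 against 2930 to 4284 CPM in the others, but without Krt8 it was 1367 CPM there and 1580 CPM in control cluster 3. Control cluster 4 also had the lowest summed level of collagens of that library, at 360 CPM against 600.2 to 1194 CPM. In the TNF-labelled library Lamb3 did not exceed 2.18 CPM in any cluster. Over all cells Lamb3 was lower together with Krt18, Krt19 and Spint2, and the part of the epithelial markers in its difference was not tested. Col19a1 also had a leading cluster, control cluster 1, at 27.8 CPM (22.0 to 34.5) against 2.86 to 6.99 CPM in the others. That cluster had the lowest median depth of the control clusters, at 1843 counts per cell, and the highest mitochondrial share, at a median of 5.75%. The part of depth and mitochondrial share in the Col19a1 difference was not tested.

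**Figure D5:**
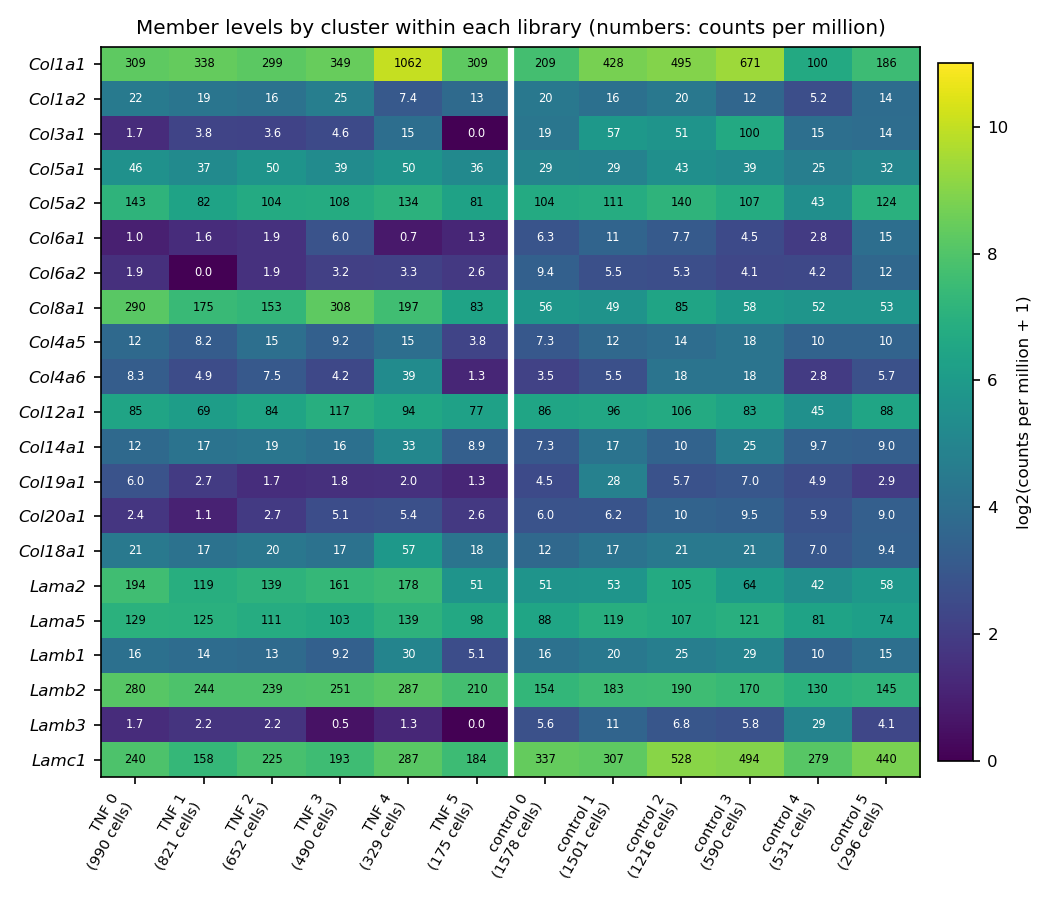
Levels of the same genes in the 6 clusters of each library, coloured by log2(CPM + 1) with the CPM written in each field and the number of cells under each column. Lamb2 is higher in every TNF-labelled column than in any control column, and so is Col8a1 apart from TNF-labelled cluster 5. Col3a1 is highest in control clusters 1, 2 and 3, and Col1a1 stands out at 1062 CPM in TNF-labelled cluster 4.

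In both libraries 1 cluster was led by Top2a, a gene of dividing cells, and 1 by Syt1, so the libraries were also set against each other within these. This comparison was chosen after the clusters were seen, and the match is partial. TNF-labelled cluster 5, led by the mitotic gene Ccnb1, was left out of it. Apart from Syt1, the Syt1-led clusters shared none of their leading genes. Col8a1 had ratios of 2.88 (2.38 to 3.51) in the Top2a-led and 3.42 (3.10 to 3.77) in the Syt1-led clusters. Lamc1 had ratios of 0.511 (0.468 to 0.558) and 0.455 (0.424 to 0.488), and Lamb2 of 1.65 (1.46 to 1.87) and 1.47 (1.36 to 1.59). Lama2 had 2.40 (1.99 to 2.90) and 1.86 (1.68 to 2.05), the second under the fixed size. Col3a1 was lower in both, with ratios of 0.254 (0.129 to 0.477) and 0.0329 (0.0131 to 0.0685), as was Col6a1, with 0.132 (0.0528 to 0.288) and 0.123 (0.0325 to 0.333).

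Col1a1 lay on opposite sides of 1 in these pairs of clusters. In the Top2a-led clusters it stood at 299 CPM in TNF-labelled and 186 CPM in control cells (ratio 1.61, 1.44 to 1.80). In the Syt1-led clusters it stood at 309 and 495 CPM (ratio 0.624, 0.585 to 0.665). The direction of the ratio of 1.11 over all cells was therefore not seen in both pairs, and the remaining clusters were not paired. The ratio over all cells was below 1 when TNF-labelled cluster 4 (0.891) or control cluster 0 (0.973) was left out. Col4a6, at 1.01 over all cells, was 0.671 without TNF-labelled cluster 4 and 1.60 without the Syt1-led control cluster. Lamb3 rested on 9 and 10 counts in the Top2a-led clusters, where its ratio of 0.533 had an interval of 0.192 to 1.46, and Col19a1 had a ratio of 1.04 (0.608 to 1.74) in the Syt1-led clusters.

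Genes that make, process and bind these proteins were taken from lists chosen with earlier results of these data known. For each list, the shares over all genes by the same size are 5.70% higher and 8.97% lower, and the median log2 ratio is -0.08. Of 19 genes of collagen synthesis, folding and processing at 5 CPM, 1 was higher and 1 lower by the size. The list had a median log2 ratio of -0.03. The higher one was Adamts2, the protease that removes the amino-terminal propeptide of procollagens, at 24.2 and 7.81 CPM (ratio 3.10, 2.59 to 3.71). The lower one was Fkbp10, a collagen chaperone, at 27.1 and 69.8 CPM (ratio 0.388, 0.347 to 0.434). Sparc, a collagen-binding glycoprotein that is also counted among the basement membrane partners, stood at 1188 and 1202 CPM. P4hb, a subunit of prolyl 4-hydroxylase, stood at 529 and 884 CPM (ratio 0.598, 0.582 to 0.614).

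Of 10 basement membrane partners at 5 CPM, 1 was higher and 1 lower, and their median log2 ratio was -0.03. Ntn4, a netrin that binds laminin gamma chains, stood at 15.3 and 4.79 CPM (ratio 3.20, 2.55 to 4.04), and Fbln1, a fibulin, at 1.78 and 5.74 CPM (ratio 0.310, 0.196 to 0.474). Tinagl1 was at 40.9 and 65.2 CPM (ratio 0.627, 0.570 to 0.689). Nid1, which links laminin to type IV collagen, had 28 and 58 counts and stayed under 5 CPM.

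Of 9 receptors for collagen and laminin at 5 CPM, 3 were higher and 0 lower by the size, at a median log2 ratio of 0.63. All 3 are known to bind collagen. Itga1, the alpha subunit of a collagen-binding integrin, stood at 40.4 and 14.7 CPM (ratio 2.74, 2.40 to 3.13), Mrc2, an endocytic collagen receptor, at 26.8 and 11.4 CPM (ratio 2.35, 2.01 to 2.75), and Ddr2, a receptor kinase for fibrillar collagen, at 172 and 76.7 CPM (ratio 2.24, 2.11 to 2.38). Over all genes the shares by the same size are 5.70% and 8.97%. The other receptors lay on both sides of 1. Among those for laminin, Itga3 had a ratio of 1.64 (1.39 to 1.93) and Dag1, dystroglycan, 1.54 (1.25 to 1.91), whereas Itga6 had 0.544 (0.490 to 0.604) and Itgb4, its hemidesmosome partner, 0.660 (0.613 to 0.711). Ddr1, a collagen receptor kinase like Ddr2, had 0.807 (0.658 to 0.986). Itgb1, the beta subunit that both kinds of receptor use, stood at 316 and 485 CPM (ratio 0.653, 0.631 to 0.675).

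Of 6 collagen-binding proteoglycans and fibril regulators at 5 CPM, 0 were higher and 1 lower, and their median log2 ratio was -0.29. The lower one was Dcn, the small proteoglycan decorin, at 103 and 234 CPM (ratio 0.441, 0.417 to 0.467). Fn1, the gene of fibronectin, stood at 452 and 531 CPM (ratio 0.852, 0.827 to 0.878), and Bgn, biglycan, at 315 and 402 CPM (ratio 0.784, 0.757 to 0.812).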

How the data were processed

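Per the labels' protocols, libraries of thawed IEC-6 cells are described as 10k Genomics. Whole-number counts were deposited per gene and cell barcode, not normalized. The submitters' processing notes name the build Rnor_5.0. Not given in the sources used here were aligner, counter, cell filter and whether counts are unique molecules. If counts are not, the intervals are too narrow.

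Cells needed 500 counts, 300 genes and no more than 20% mitochondrial counts to be kept (3457 of 3457 and 5712 of 5713). Genes were joined by Ensembl identifier, and a gene missing from a list counted as 0. Summed counts gave CPM with exact Poisson intervals, and ratios with exact conditional binomial intervals, with a library under 3 counts entered at 3 for medians and counts of genes. Ratios of a chain relative to another are odds ratios with exact conditional intervals. No test was run, as each group is 1 library. Clusters came from scanpy 1.11.5 (2000 variable genes without members, 30 components, 15 neighbours, Leiden resolution 0.5). Doublets were not removed. Scalings used edgeR 4.0.16 and DESeq2 1.42.0. Ratios and intervals were run on simulated counts that vary by counting error alone, and checked for genes of at least 20 CPM. This checks the computation. It cannot show whether the intervals hold at lower levels or for counts concentrated in few cells.

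The members, lists and sizes were chosen with earlier results of these data known. 1 member is counted but its values are not reported here. Named are the other members, and from each partner list the genes past 2-fold and the 2 with the highest mean level, to which Nid1 and the remaining receptors at 5 CPM were added after their values were seen.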

Additional observations from a re-analysis of the deposited data

How the results depend on the processing

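No paired analysis was possible because each group has 1 library. Under all 3 scalings tried (TMM, DESeq2 size factors, totals without ribosomal and mitochondrial genes) the counts stayed at 2 members higher and 6 lower. Over genes that reached 10 CPM in each library, the median log2 ratio of -0.05 became 0.10 with TMM and 0.14 with DESeq2 size factors, which turned the split of all genes from 5.70% higher and 8.97% lower to 9.23% and 6.02%, and to 10.4% and 5.34%. Under the scalings Col12a1 ranged from 0.978 to 1.14 and Col4a6 from 0.999 to 1.17, so neither has a settled direction. The stricter cell filter, thinned cells, equally weighted cells, cells without a Top2a or Mki67 count, and leaving out the 24 shared barcodes also gave 2 and 6. Identifiers were not summed, since no member symbol had more than 1.

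The minimum level decided the lower count. It gave 15 of 35 members lower at 1 CPM (13.7% of all genes), 1 of 15 at 10 CPM (8.19%) and 1 of 11 at 20 CPM (7.80%), Col3a1, because the other 5 lie under 10 CPM. The collagen median was -0.76 with a minimum of 1 CPM, and the laminin median 0.27 at 10 CPM and 0.45 at 20 CPM. At 3-fold, 1 member was higher and 4 lower (1.21% and 2.64% of all genes). Leaving out each cluster in turn kept 2 higher and gave 5 to 6 lower. Without control cluster 1 Col19a1 had a ratio of 0.607, where it was 0.395 over all cells. In the Top2a-led clusters 4 of 20 members were higher and 4 lower (7.83% and 10.2% of all genes), and the medians were 0.32 for collagens and 0.19 for laminins. In the Syt1-led clusters 1 of 22 was higher and 8 were lower (5.46% and 10.7%). Both medians changed sign there, as the middle collagen, Col4a5, had a ratio of 0.860 and the middle laminin, Lamb1, 0.627. In the Syt1-led clusters Col19a1 had a ratio of 1.04 (0.608 to 1.74), no difference beyond counting error.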
